A study of Mus musculus with 10 samples.

Results

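Conjugating enzymes join a polar group to drugs, hormones and waste molecules so that these leave the body in urine or bile. They were taken here as all genes of the deposited kidney table whose symbol starts with Ugt1 to Ugt3 (UDP-glucuronosyltransferases, UGT), with Gst followed by a, k, m, o, p, t or z or with Mgst (glutathione S-transferases, GST), with Sult (sulfotransferases, SULT) or with Ces and a digit (carboxylesterases, CES). The rule used symbols alone and found 41 of the 13299 genes: 9 UGT, 19 GST, 5 SULT and 8 CES genes. The CES genes are counted under the name conjugating enzymes here, although they cut bonds and join no group. The study asked what a mild rise of nutrient signaling to the kinase complex mTORC1 does to aged organs. It compared 5 kidneys of mice with the genotype RagC S74N (KI/+), written here as Rragc S74N/+ or mutant, with 5 kidneys of Rragc +/+ or wild-type mice. Rragc encodes the small GTPase RagC, which passes the signal of nutrient sufficiency to mTORC1, and S74N is an activating change. The change was made by genome editing of embryos and carried in 1 allele, so every cell of the body carried it, and no cell type or promoter limited it. All 10 mice were 1.5 years old and the whole kidney was used. The labels give neither the sex of the mice nor a replicate number, so replicates were numbered 1 to 5 in each group by order of deposit. The p-values set the difference between the groups against the spread between these samples.

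UGT enzymes sit in the endoplasmic reticulum and transfer glucuronic acid from UDP-glucuronate. GST enzymes, most of them in the cytosol, transfer the tripeptide glutathione, and the products are trimmed and acetylated to mercapturates by enzymes that the kidney holds in abundance. SULT enzymes transfer sulfate from the donor PAPS to phenols, amines and steroids, and CES enzymes cut esters and amides, which often exposes the group that is conjugated next. In the kidney these enzymes are best known from the proximal tubule, the segment that also takes up and secretes their substrates.

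The assay sequenced the 3′ end of each mRNA, and its values are normalized counts, reads per gene divided by a size factor of the library, and need no correction for transcript length. The libraries held between 4488493 and 5797251 reads. Each of the 18 proximal tubule markers was in the table. Kap alone gave most of their summed count, and without it the sum of the other 17 ran from 61116 to 76087 in Rragc +/+ and from 58867 to 79000.2 in Rragc S74N/+ kidneys, with overlap, although 2 of them (Slc5a2 and Gatm) were lower past the threshold. Mutant replicate 1 stood apart in the summed count of 8 markers of the last proximal tubule segment. Its sum was 5895 against 8454 to 11636 in the other 9 kidneys, while its Atp11a, Slc22a7 and Slc6a18 lay within their range. This kidney also had 307 normalized counts of the injury marker Lcn2 against 6.11 to 72.7, so results are given without it where they change. Rragc itself had 146 ± 42.7 (SD, n = 5) normalized counts in the wild-type and 124 ± 26.4 (SD, n = 5) in the mutant kidneys, with adjusted p = 0.508 in limma. An exchange of a few bases in 1 allele leaves the transcript in place, so this level checks no label. Of the 13236 genes that passed the filter on low values, 6.03% passed the threshold of the test, an adjusted p under 0.05 in limma. Genes that were higher in Rragc S74N/+ kidneys made up 3.45% and genes that were lower 2.58%.

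All 41 members passed the filter. Of these, 4 passed the threshold, 3 of them higher (Ugt2b37, Ces2e and Ces1f) and 1 lower (Ugt2b34) in Rragc S74N/+ kidneys, which is 9.76% of the members against 6.03% of all genes tested. The members' median log2 fold change was 0.05, that of all genes tested was -0.01, and 24 members were fitted above 0 and 17 below. At an unadjusted p under 0.05, 11 members passed, where 25.4% of all genes did. The groups did not overlap for 3 members (Ugt2b34, Ugt2b37 and Ces1f), where 8.16% of all genes had groups without overlap. Without mutant replicate 1 these 4 members still passed, with log2 fold changes of -4.15 for Ugt2b34, 1.01 for Ugt2b37, 0.87 for Ces2e and 0.50 for Ces1f, and Gsto1 and Ugt2b38 passed as well, which makes 6 of 41 where 6.80% of all genes passed. In whole kidney, fewer cells of a type and less RNA per cell cannot be told apart, for these genes as for any other.

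**Figure D1:**
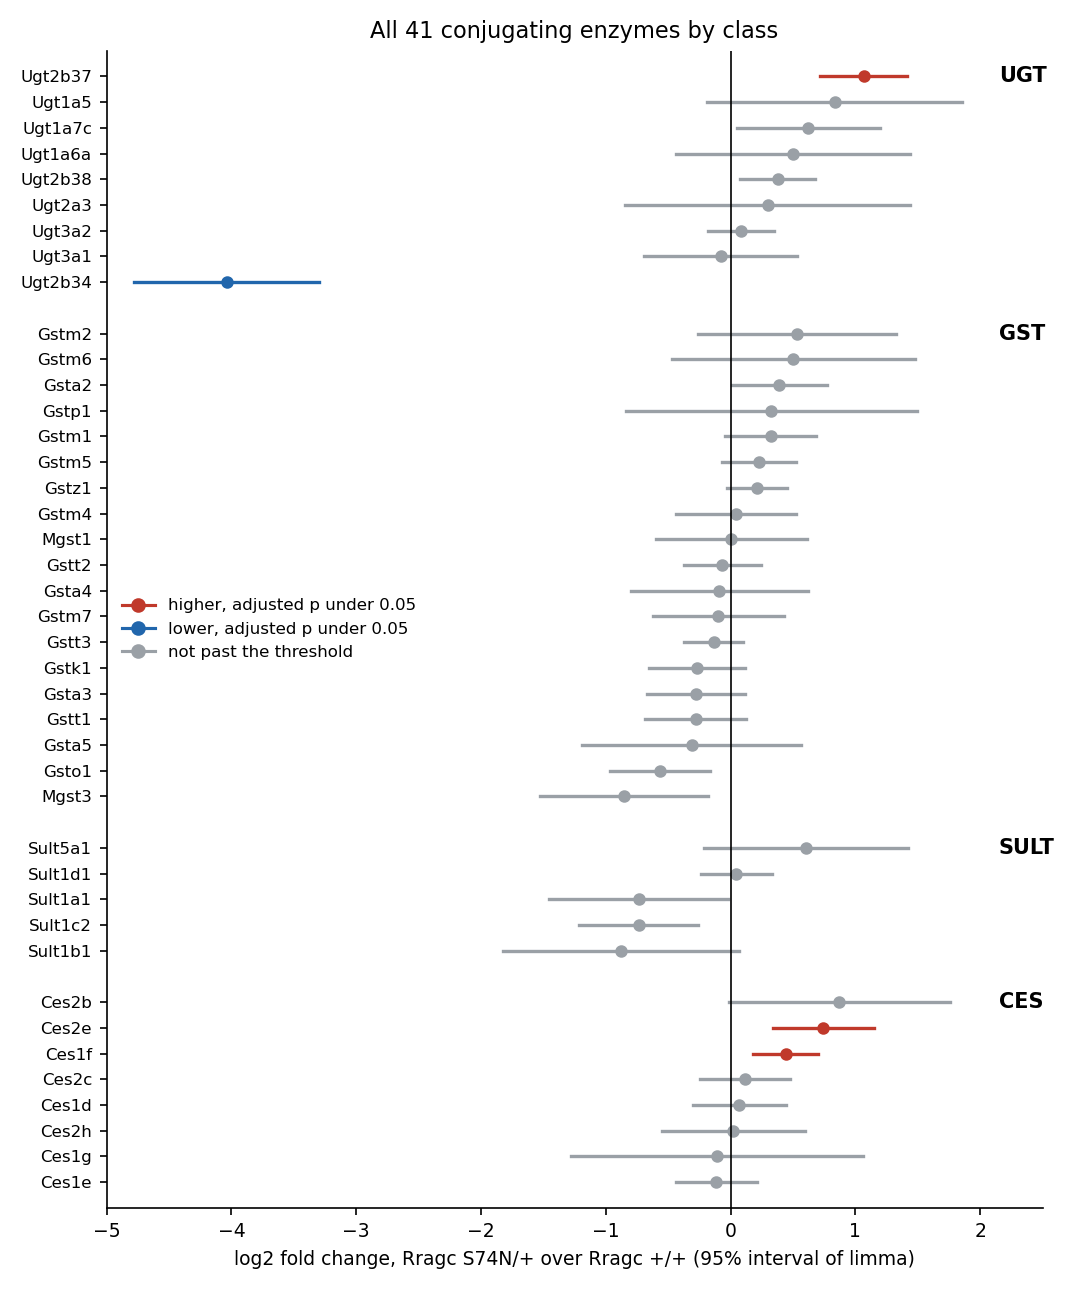
Log2 fold change (x axis, Rragc S74N/+ over Rragc +/+) with its 95% interval from limma for each of the 41 members, grouped by class and ordered within it. Ugt2b34 lies alone at -4.04, far to the left of all other members, 3 members in red passed the threshold as higher, and the intervals of most others cross 0.

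Both of the strongest changes lay in the Ugt2b genes of chromosome 5, where the members follow each other in the order Ugt2b34, Ugt2b37, Ugt2a3 and Ugt2b38. The RefSeq promoter windows, 250 bases before to 50 bases after the transcript start on build GRCm38.p6, are shown for the member that fell, the member that rose and the near copy of the latter. They lie on the minus strand at chr5:86906888-86907187 for Ugt2b34, chr5:87254739-87255038 for Ugt2b37 and chr5:87424154-87424453 for Ugt2b38. Capitals mark the 12 paired bases that differ between Ugt2b37 and Ugt2b38 in their alignment, which pairs 286 bases with 95.8% identity. Bases without a partner, such as tacgta near the start of the Ugt2b38 window, were neither marked nor counted.
Ugt2b37: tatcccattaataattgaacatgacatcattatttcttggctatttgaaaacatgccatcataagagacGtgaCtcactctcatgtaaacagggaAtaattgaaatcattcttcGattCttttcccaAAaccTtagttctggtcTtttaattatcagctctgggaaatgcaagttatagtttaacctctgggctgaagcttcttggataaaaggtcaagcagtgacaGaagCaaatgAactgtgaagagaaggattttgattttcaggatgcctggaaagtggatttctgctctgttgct
Ugt2b38: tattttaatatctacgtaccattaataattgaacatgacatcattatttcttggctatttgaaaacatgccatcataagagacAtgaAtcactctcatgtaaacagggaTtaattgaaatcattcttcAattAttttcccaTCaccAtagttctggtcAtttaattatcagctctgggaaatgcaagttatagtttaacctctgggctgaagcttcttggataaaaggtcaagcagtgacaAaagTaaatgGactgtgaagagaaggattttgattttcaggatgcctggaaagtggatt
Ugt2b34: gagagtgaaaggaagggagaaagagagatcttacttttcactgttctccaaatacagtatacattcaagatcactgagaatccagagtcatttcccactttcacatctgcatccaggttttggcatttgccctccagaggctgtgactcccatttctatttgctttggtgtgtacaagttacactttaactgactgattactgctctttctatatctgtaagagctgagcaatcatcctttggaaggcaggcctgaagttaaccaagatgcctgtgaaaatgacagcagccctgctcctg
The Ugt2b34 window is printed without capitals and shared 63.8% of 246 aligned bases with that of Ugt2b37.

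Ugt2b34 was nearly absent from Rragc S74N/+ kidneys. In Rragc +/+ kidneys it had 47.0, 57.2, 33.6, 50.7 and 41.8 normalized counts, and in Rragc S74N/+ kidneys 2.80, 0.969, 1.0, 3.06 and 1.94. Each of the 5 mutant kidneys was thus more than 10 times below the lowest wild-type kidney, and the groups did not overlap. The means were 46.0 ± 8.94 (SD, n = 5) and 1.95 ± 0.975 (SD, n = 5), the log2 fold change was -4.04 ± 0.35 (SE), and the adjusted p in limma was 6.9e-06. Behind these values stood 232 reads in the 5 wild-type libraries and 10 reads in the 5 mutant libraries, between 1 and 3 in each. With the reads of each group divided by its summed size factors, the level was 23.5 times higher in Rragc +/+ kidneys. Its exact 95% interval of 12.6 to 49.7 covers counting error only. No 50-base window of the last 500 bases of its transcripts was found in another gene of the GENCODE vM21 annotation. The search was for whole windows, so it does not show whether a near copy with differing bases shares its 3′ reads.

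Ugt2b37, which like other UGT2B enzymes glucuronidates steroids and other lipophilic substrates, rose in Rragc S74N/+ kidneys. Rragc +/+ kidneys had 2108, 1145, 1717, 2285 and 1758 normalized counts and Rragc S74N/+ kidneys 4329.7, 3207, 3160.3, 3731 and 4088. All 5 mutant kidneys lay above all 5 wild-type kidneys. The means were 1803 ± 438 (SD, n = 5) and 3703 ± 520.2 (SD, n = 5), a ratio of 2.05, with a log2 fold change of 1.07 ± 0.16 (SE) and adjusted p = 0.00163 in limma. Of the 50-base windows at its 3′ end, 3.10% were shared with another gene, Ugt2b5. The sample titles fall into numbers under 200 (3 kidneys of each genotype) and over 200 (2 of each), and what that split stands for is not given. The log2 difference of Ugt2b37 was 1.13 in the lower and 0.96 in the upper range, and that of Ugt2b34 was -4.22 and -3.77.

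Ugt2b38, its near copy by promoter, did not pass the threshold. It had 2032, 1846, 1803, 1346 and 2009.7 normalized counts in Rragc +/+ and 1862, 2256, 2288, 2280.3 and 3079.8 in Rragc S74N/+ kidneys. Only replicate 1 of the mutant kidneys lay within the wild-type range, and the log2 fold change was 0.38 ± 0.14 (SE) with adjusted p = 0.116 in limma. Without that replicate it was 0.46 with adjusted p = 0.0319 in limma. Among samples with title numbers under 200 the log2 difference was 0.17, and among those over 200 it was 0.69. The ratio of Ugt2b37 to Ugt2b38 counts was 1.04 ± 0.401 (SD, n = 5) in the wild-type and 1.62 ± 0.412 (SD, n = 5) in the mutant kidneys. It ran from 0.621 to 1.70 and from 1.33 to 2.32, so the groups overlapped. An exact two-sided permutation test of the log2 ratio over all 252 allocations of the samples gave p = 0.0397, on a ratio that was chosen after its values had been seen.

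**Figure D2:**
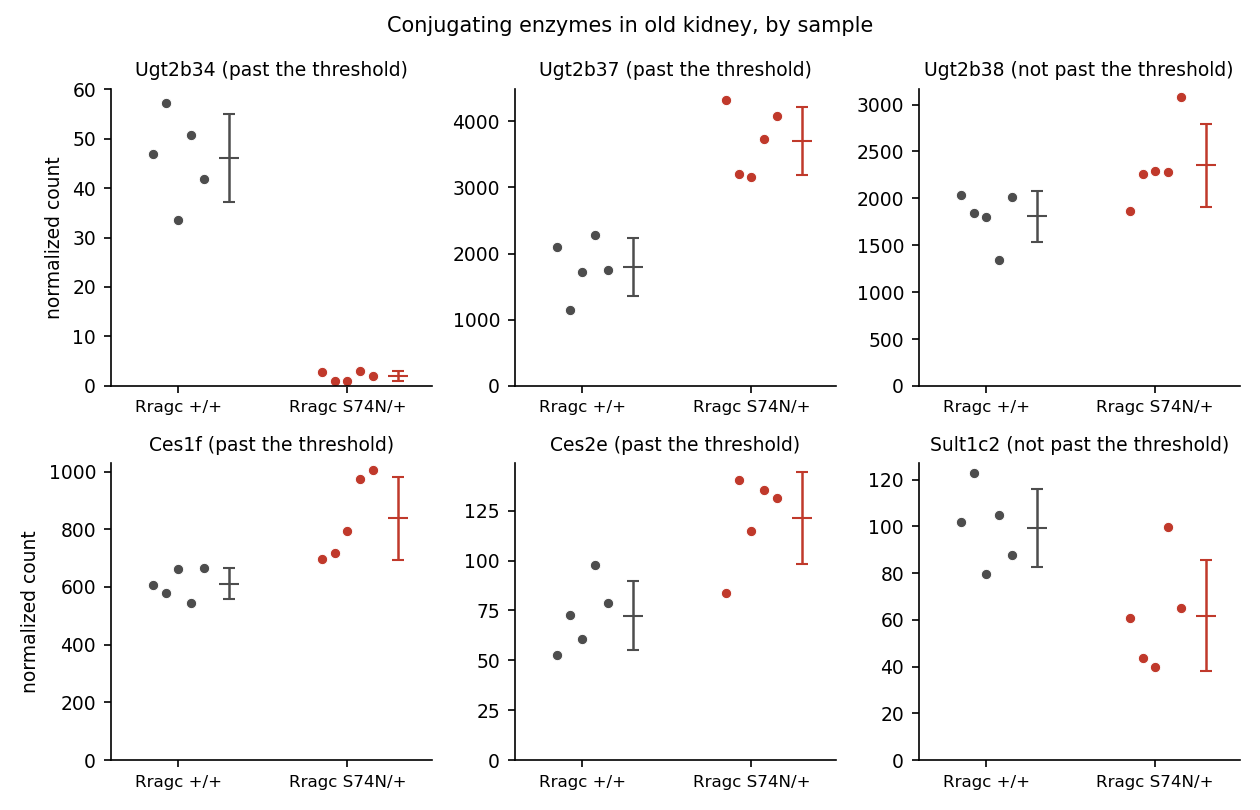
Normalized count (y axis, linear from 0, a scale of its own in each panel) of 6 conjugating enzymes in the 5 Rragc +/+ (grey) and 5 Rragc S74N/+ (red) kidneys. Points are samples in replicate order, and the bars beside them give the mean and SD. Ugt2b34 drops to between 0.969 and 3.06, Ugt2b37 and Ces1f separate the groups upward, and Ces2e, Ugt2b38 and Sult1c2 overlap.

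The other 6 UGT genes did not pass the threshold. The Ugt1a genes are made from one locus whose transcripts have separate first exons and share the last ones. At the 3′ end, 100% of the windows of Ugt1a5 and Ugt1a6a and 43.7% of those of Ugt1a7c were found in another gene, so their counts are uncertain as values of a single gene. All 3 were fitted above 0. Ugt1a7c, with the most counts of the family, had 27.6 ± 6.86 (SD, n = 5) normalized counts in the wild-type and 44.7 ± 17.6 (SD, n = 5) in the mutant kidneys, with adjusted p = 0.16 in limma. Ugt1a5 and Ugt1a6a had log2 fold changes of 0.83 and 0.50. Ugt2a3 had few reads in both groups, with 10.5 ± 6.50 (SD, n = 5) and 11 ± 4.70 (SD, n = 5) normalized counts. The Ugt3a enzymes, whose human counterparts use sugars other than glucuronic acid, differed little. Ugt3a2 had 737 ± 81.1 (SD, n = 5) normalized counts in the wild-type and 787 ± 121 (SD, n = 5) in the mutant kidneys, and its 95% interval on the log2 scale ran from -0.18 to 0.35. Ugt3a1 spread more widely in the mutant kidneys, from 31.7 to 127, than in the wild-type kidneys, from 66.4 to 92.6.

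Among the 19 GST genes 0 passed the threshold in limma, and 3 had an unadjusted p under 0.05 (Gsto1, Mgst3 and Gsta2). The class had a median log2 fold change of -0.07, with 9 genes fitted above 0 and 10 below, and the calls also stayed at 0 with edgeR and DESeq2 on the recovered reads of all 10 samples. In the Gstm family, which holds the main cytosolic GST of many rodent tissues, Gstm1 had 1951 ± 427 (SD, n = 5) normalized counts in the wild-type and 2429 ± 529.9 (SD, n = 5) in the mutant kidneys, with adjusted p = 0.253 in limma. Its interval ran from -0.04 to 0.68 on the log2 scale. Gstm2 was uneven. It had 198, 175, 498, 187 and 221 normalized counts in Rragc +/+ and 912, 487, 278, 194 and 190.4 in Rragc S74N/+ kidneys, so wild-type replicate 3 and mutant replicates 1, 2 and 3 stood above the other 6 kidneys. The other Gstm genes, Gstm4, Gstm5, Gstm6 and Gstm7, had log2 fold changes between -0.10 and 0.50 with overlapping groups.

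Of the alpha class, Gsta2 had 431, 487, 476, 712 and 287 normalized counts in Rragc +/+ and 533, 628, 539.9, 680.3 and 645 in Rragc S74N/+ kidneys. All 5 mutant kidneys lay above 4 of the 5 wild-type kidneys and below wild-type replicate 4, and adjusted p was 0.188 in limma. At its 3′ end 62.1% of the windows were shared, most of them with the gene model Gm10639. Gsta4, which detoxifies the lipid peroxidation product 4-hydroxynonenal, was split within the mutant group, with 152 and 104 normalized counts in replicates 1 and 2 and 39.0, 38.7 and 40.8 in the others. Wild-type kidneys lay between 52.0 and 78.3, so 2 mutant kidneys were above and 3 below all of them, and the log2 fold change of -0.09 describes neither part. Gsta3 and Gsta5 were fitted at -0.28 and -0.31 with overlapping groups.

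The GST genes with the lowest ratios were Gsto1 and Mgst3. Gsto1, an omega class enzyme that reduces dehydroascorbate, had 98.4, 115, 138, 119.6 and 98.5 normalized counts in Rragc +/+ and 107, 80.4, 78.0, 77.4 and 49.5 in Rragc S74N/+ kidneys. Replicate 1 was the only mutant kidney within the wild-type range. The log2 fold change was -0.56 ± 0.19 (SE) with adjusted p = 0.0837 in limma, and without that replicate they were -0.68 and 0.0237, past the threshold. Mgst3, a membrane enzyme with glutathione peroxidase activity, was fitted at a log2 fold change of -0.86 ± 0.32 (SE) with adjusted p = 0.111 in limma, and its ranges, 16.6 to 45.9 and 12 to 26.2, overlapped. The log2 difference was -1.48 among the samples with title numbers under 200 and 0.07 among those over 200, so it was not shared by both sets. Its relative Mgst1 had 44.3 ± 21.4 (SD, n = 5) and 41.2 ± 8.07 (SD, n = 5) normalized counts.

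The theta, zeta, kappa and pi class genes overlapped between groups. Gstt2, the theta class gene with the most counts, had 575 ± 65.9 (SD, n = 5) and 556 ± 105 (SD, n = 5) normalized counts, and Gstt1 and Gstt3 were fitted at -0.28 and -0.14. Gstz1, the maleylacetoacetate isomerase of tyrosine breakdown, had 908 ± 75.7 (SD, n = 5) in the wild-type and 1056 ± 129.8 (SD, n = 5) in the mutant kidneys, with adjusted p = 0.248 in limma. Gstk1, found in mitochondria and peroxisomes, had 151 ± 33.6 (SD, n = 5) and 123 ± 20.4 (SD, n = 5) normalized counts. Gstp1 had 5.31 ± 3.72 (SD, n = 5) and 6.98 ± 4.15 (SD, n = 5), and 78.0% of its 3′ windows were shared with Gstp2.

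Of the 5 SULT genes 0 passed the threshold in limma and in edgeR on all 10 samples, 1 passed in DESeq2 on these samples (Sult1c2), and 2 had an unadjusted p under 0.05. Sult1d1, which sulfates phenols and amines, held 93.3% of the counts of its family in Rragc +/+ and 95.6% in Rragc S74N/+ kidneys. It had 2024 ± 224 (SD, n = 5) and 2110.4 ± 363 (SD, n = 5) normalized counts, with a log2 fold change of 0.05 ± 0.13 (SE). Sult1c2 had 102, 123, 79.7, 105 and 87.6 normalized counts in Rragc +/+ and 60.6, 43.6, 40.0, 99.8 and 65.1 in Rragc S74N/+ kidneys. In 4 of the 5 mutant kidneys it lay below all wild-type kidneys, and replicate 4 lay inside their range. The log2 fold change was -0.74 ± 0.22 (SE) and adjusted p was 0.0624 in limma. Among samples with title numbers under 200 the log2 difference was -1.06, and among those over 200 it was -0.25. The phenol sulfotransferase Sult1a1 and Sult1b1, which also sulfates thyroid hormones, had few reads. Sult1a1 had a mean of 20.8 ± 9.19 (SD, n = 5) against 11.5 ± 3.20 (SD, n = 5), and Sult1b1 15.5 ± 7.64 (SD, n = 5) against 8.34 ± 5.15 (SD, n = 5), with adjusted p = 0.187 and 0.226 in limma. Sult5a1 was fitted in the other direction, at 0.60 with adjusted p = 0.342 in limma.

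Of the 8 CES genes 2 passed the threshold, both as higher in Rragc S74N/+ kidneys. Ces2e had 52.6, 72.8, 60.5, 97.8 and 78.6 normalized counts in Rragc +/+ and 83.9, 141, 115, 135 and 131 in Rragc S74N/+ kidneys. Mutant replicate 1 lay below wild-type replicate 4, and the other 4 mutant kidneys lay above all wild-type kidneys. The means were 72.5 ± 17.5 (SD, n = 5) and 121 ± 22.9 (SD, n = 5), a ratio of 1.67, with a log2 fold change of 0.74 ± 0.19 (SE) and adjusted p = 0.0325 in limma. The log2 difference was 0.84 among samples with title numbers under 200 and 0.60 among those over 200. The call was lost in 6 of the 10 fits that left out a single library, namely without wild-type replicate 1, 2 or 3 or mutant replicate 2, 4 or 5, where adjusted p in limma lay between 0.0664 and 0.0866 and the log2 fold change between 0.64 and 0.75.

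Ces1f, one of the CES1 enzymes that cut esters of drugs and lipids, had 606, 578, 663, 545 and 667 normalized counts in Rragc +/+ and 698, 718, 794, 974 and 1006 in Rragc S74N/+ kidneys. All mutant kidneys lay above all wild-type kidneys, by a small gap. The means were 612 ± 53.1 (SD, n = 5) and 838 ± 143 (SD, n = 5), a ratio of 1.37, with a log2 fold change of 0.44 ± 0.12 (SE) and adjusted p = 0.0473 in limma. The log2 difference was 0.26 among samples with title numbers under 200 and 0.71 among those over 200. The call was lost in 8 of the 10 fits without a single library, all but those without mutant replicate 1 or 2, where adjusted p in limma lay between 0.0515 and 0.118 and the log2 fold change between 0.37 and 0.47. At the 3′ end, 7.29% of the windows of Ces2e and 2.22% of those of Ces1f were found in another gene.

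The other 6 CES genes did not pass the threshold. Ces2c, the one with the most counts, had 869 ± 113 (SD, n = 5) and 967 ± 247 (SD, n = 5) normalized counts, with 35.7% of its 3′ windows shared, most of them with the pseudogene Ces2d-ps. Ces2b was at 35.8, 31.2, 15.4, 8.73 and 4.97 in Rragc +/+ and at 31.7, 29.1, 27.0, 24.4 and 32.1 in Rragc S74N/+ kidneys. The wild-type kidneys thus spread widely and the mutant kidneys lay inside their range, with adjusted p = 0.204 in limma. The log2 difference of Ces2b was 0.17 among samples with title numbers under 200 and 1.93 among those over 200. Ces1d, Ces1e, Ces1g and Ces2h had log2 fold changes between -0.11 and 0.07.

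Summed by class, the UGT genes stood apart between the groups. Their sum was 5018, 3919, 4359, 4545 and 4794 normalized counts in Rragc +/+ and 6938, 6283, 6448, 7109.9 and 8269 in Rragc S74N/+ kidneys. The groups did not overlap, and the ratio of the means was 1.55. Ugt2b37 carried most of this, since without it the ratio was 1.21 and the sums overlapped, with 2259 to 3036 and 2608 to 4181. The GST sum had a ratio of 1.12, the SULT sum of 1.02 and the CES sum of 1.19, each with overlapping groups. Without mutant replicate 1 the 4 ratios were 1.55, 1.11, 1.09 and 1.27 in the order UGT, GST, SULT and CES. Without Sult1d1 the SULT sum was 145 ± 24.5 (SD, n = 5) in the wild-type and 96.4 ± 24.7 (SD, n = 5) in the mutant kidneys, a ratio of 0.665 with overlapping groups. The sums are a description and were not tested.

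**Figure D3:**
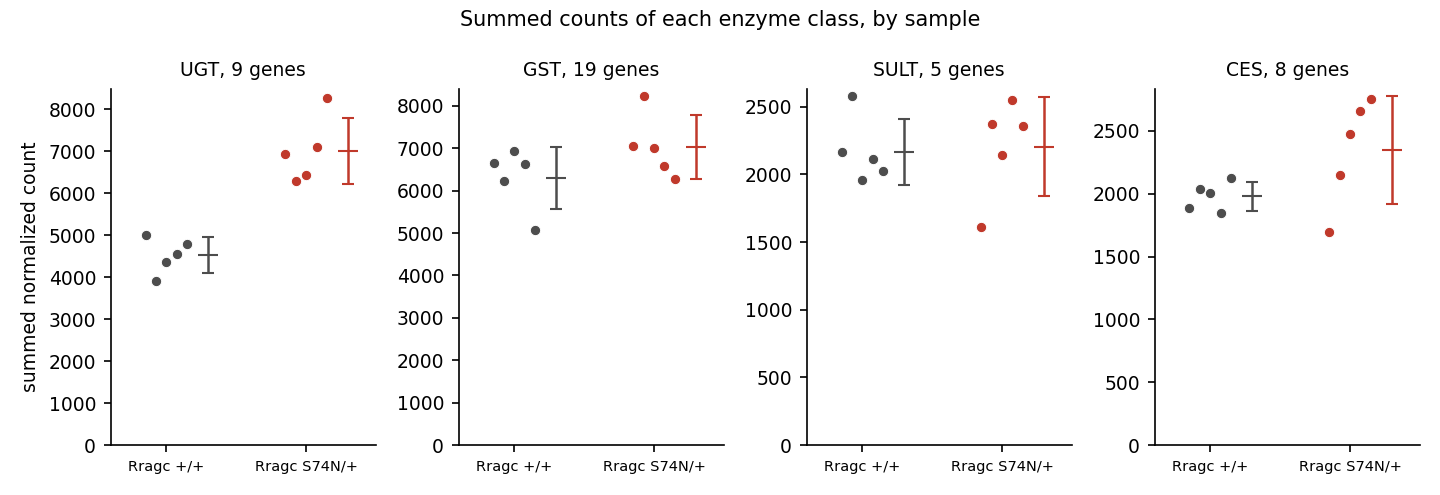
Sum of the normalized counts (y axis, linear from 0, a scale of its own in each panel) of each enzyme class in the 5 Rragc +/+ (grey) and 5 Rragc S74N/+ (red) kidneys, with the mean and SD beside the points. The UGT sums lie between 3919 and 5018 and between 6283 and 8269 without overlap, and the other 3 classes overlap.

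RefSeq windows were at hand for 34 of the 41 members, and 5 short motifs were searched in them on both strands. The core of the antioxidant response element bound by Nrf2, TGACNNNGC, was found in windows of Gsta3, Gstm5, Gstm7 and Mgst1, while 12.4% of the windows of all genes held it. None of these 4 members passed the threshold. The half-site TGCTGA of Maf factors was in 10 of the 43 member windows (19.5% of all windows). TGCTGA and TGACNNNGC can overlap, but no member had both. The Hnf4 site CAAAGTCCA was in the window of Sult1b1 (0.475% of all windows), the TATAAA box in 7 windows (13.6%), and CACGTG, bound by TFEB and its relatives, in 0 (7.15%). None of these letters was found in the windows of Ugt2b34, Ugt2b37, Ugt2b38 and Ces2e. A match or its absence concerns these letters in this window only.

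The genes that feed or follow conjugation were read from 7 lists, of whose 96 genes 83 were tested. Of these, 2 were higher and 3 lower past the threshold, which is 6.02% of the 83 against 6.03% of all genes tested. The median log2 fold change of the 83 was 0.02, where that of all genes tested was -0.01. The supply of UDP-glucuronate (11 genes), mercapturate processing (13 genes) and other hydrolases (9 genes) had 0 calls in limma. At an unadjusted p under 0.05 they had 2, 2 and 1 genes, where 25.4% of all genes passed. The glutathione, sulfate, other conjugating enzyme and regulator lists had 1 of 10, 6 of 11, 3 of 14 and 4 of 15. Ugdh, which makes UDP-glucuronate, had 120.3 ± 22.8 (SD, n = 5) normalized counts in the wild-type and 142 ± 10.9 (SD, n = 5) in the mutant kidneys, with adjusted p = 0.287 in limma. The genes of glutathione synthesis and recycling held 1 call of 10, Txnrd1, a thioredoxin reductase, whose log2 fold change was 0.62 ± 0.12 (SE) with adjusted p = 0.0092 in limma. It ran from 741 to 1041 in Rragc +/+ and from 1114 to 1626 in Rragc S74N/+ kidneys, without overlap. Gclc, which catalyses the limiting step of glutathione synthesis, had 442, 847, 1299, 1293 and 1281 normalized counts in Rragc S74N/+ against 657 to 894 in Rragc +/+ kidneys, so replicate 1 lay below and 3 kidneys above the wild-type range, and adjusted p was 0.373.

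On the sulfate side, 2 of 11 genes passed, both as lower. Papss1, an enzyme that makes the sulfate donor PAPS, fell from 334 ± 44.5 (SD, n = 5) to 225 ± 39.2 (SD, n = 5) normalized counts, with adjusted p = 0.0257 in limma and a slight overlap of the groups. The other PAPS synthase, Papss2, was at 639 ± 87.9 (SD, n = 5) and 762 ± 194 (SD, n = 5), with adjusted p = 0.410. Arsb, a lysosomal sulfatase, fell from 153 ± 11 (SD, n = 5) to 93.9 ± 13.9 (SD, n = 5) without overlap. The sulfate transporter Slc26a2 did not overlap either, with 38.5 to 74.9 in Rragc +/+ and 79.0 to 155 in Rragc S74N/+ kidneys. It missed the threshold at adjusted p = 0.0532 in limma. Slc26a1, of the same list, was lower without overlap, with 1099 to 1331 in Rragc +/+ and 975 to 1071 in Rragc S74N/+ kidneys. Its adjusted p was 0.157 in limma. In this list 3 of 11 genes had groups without overlap, where 8.16% of all genes did.

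Among the 14 other conjugating enzymes, 1 passed. Ugt8a, which transfers galactose to ceramide and is no drug conjugating enzyme, rose from 167 ± 24.8 (SD, n = 5) to 256 ± 15.3 (SD, n = 5), with adjusted p = 0.0104 in limma. Of the 15 regulators, Maf alone passed. It had 4657, 6199, 5310.4, 5545 and 4470.1 normalized counts in Rragc +/+ and 1535, 2938, 3004, 3090.0 and 2829 in Rragc S74N/+ kidneys, a log2 fold change of -1.0 ± 0.17 (SE) with adjusted p = 0.0043 in limma. Every mutant kidney lay below every wild-type kidney.

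Other regulators known for these enzymes did not pass. Nfe2l2, the gene of Nrf2, had 600.4 ± 71.9 (SD, n = 5) and 617 ± 88.4 (SD, n = 5) normalized counts, and Keap1, its inhibitor, 467 ± 26.8 (SD, n = 5) and 421 ± 51.7 (SD, n = 5). Hnf4a, a factor of proximal tubule cells, had a log2 difference of -0.49 and an adjusted p of 0.117 in limma. With counts scaled to equal library totals, 7 genes of the 7 lists passed, 5 higher and 2 lower, against 2 higher and 3 lower above. Over all genes tested, 943 passed under that scaling and 798 without it. Papss1 no longer passed, and Glyat, Nat8f1 and Slc26a2 did. Without mutant replicate 1, 8 genes passed, 5 higher and 3 lower, with Gclc, Nat8 and Nat8f1 added, where 6.80% of all genes passed.

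**Figure D4:**
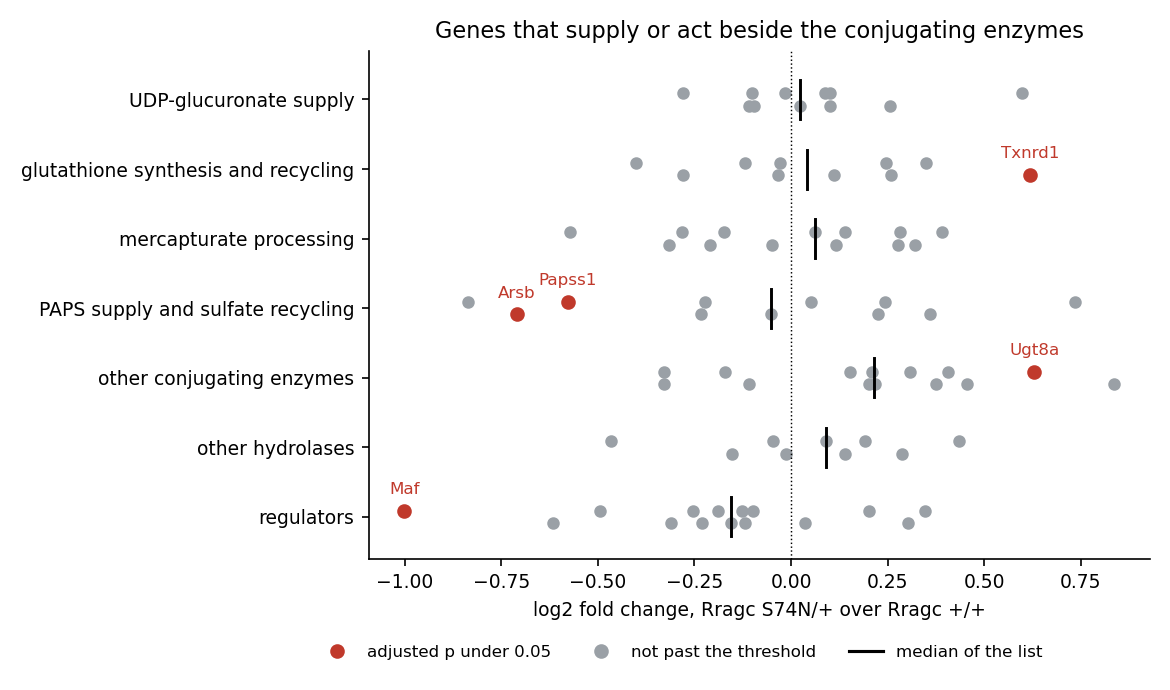
Log2 fold change (x axis, Rragc S74N/+ over Rragc +/+) of each tested gene of the 7 lists of genes around conjugation. Points are genes, those in red passed the threshold and are named, and the black bar is the median of the list. Maf lies lowest at -1.0, and the medians lie between -0.15 and 0.21.

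Other cell markers moved in the same kidneys, and their part in the values of the conjugating enzymes was not tested. Of 5 markers of the first proximal tubule segment, 3 were lower past the threshold in Rragc S74N/+ kidneys (Slc5a2, Slc6a19 and Gatm). The range of the summed count of the 5 did not overlap, with 3657 to 4564 and 2285 to 3179.6. Slc5a2, the glucose transporter of that segment, was fitted at a log2 fold change of -1.05 ± 0.14 (SE). Of 8 markers of the last segment, 0 passed in limma, and 0 had an unadjusted p under 0.05. The 16 proximal tubule markers other than Slc5a2 and Gatm did not pass and were fitted between -0.41 (Slc5a1) and 0.79 (Slc22a7), among them Lrp2, Slc34a1, Slc7a13 and Kap between -0.17 and 0.19. Without mutant replicate 1, the calls were again 3 lower of 5 in the first segment, 0 of 8 in the last and 3 higher of 5 injured tubule markers. Among 5 injured tubule markers 3 were higher past the threshold, with Havcr1 at 4.24 ± 3.79 (SD, n = 5) and 33.6 ± 22.8 (SD, n = 5) normalized counts.

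The marker counts that follow are of genes past the threshold, where 3.45% of all genes tested were higher and 2.58% lower. All 5 markers of the distal convoluted tubule and 2 of 5 of the thick ascending limb were lower. Intercalated cell markers had 1 higher and 2 lower of 6, and podocyte markers 1 higher of 5. Collecting duct principal cell and endothelial markers, 6 genes each, had 0 calls in limma, with 0 and 1 at an unadjusted p under 0.05. Of the fibroblast and macrophage markers 2 of 6 and 2 of 7 were higher, of the T cell markers 1 of 4, and of the B and plasma cell markers 0 of 3, with 2 at an unadjusted p under 0.05. In the same order of lists, 5, 5, 4 and 3 markers were fitted above 0. Since several UGT and SULT genes differ between male and female mouse kidney, sex was checked. The Y-linked genes Ddx3y, Kdm5d, Eif2s3y and Uty each had at least 26.9 normalized counts in all 10 kidneys, so all 10 mice were male. Xist, listed beside them, had no row in the deposited table. Of 7 genes known as higher in male kidney 1 passed, as higher in Rragc S74N/+ kidneys, and of 4 known as higher in female kidney 0 passed, with 1 at an unadjusted p under 0.05.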

How the data were processed

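Whole kidney RNA of 10 mice was sequenced from the 3′ end with an oligo-dT primed, strand-specific kit. The authors checked reads with FastQC 0.11.7, aligned them to GRCm39 with TopHat2 2.0.10, Bowtie 1.0.0 and SAMtools 0.1.19, used HTSeq 0.6.1 with a GENCODE annotation for sense-strand counts per gene, and scaled them. The deposited table holds 13299 genes as a signal of normalized counts, that is, reads divided by a size factor. The lowest gene mean in it was 4.37, so rarely read genes had been removed by a rule not given in the sources used here, and a gene without a row was not analysed here. Every per-sample column was matched to a sample by its title, and 0 columns were left unassigned.

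A gene was tested when it had at least 5 normalized counts in at least 5 samples, which left 13236 genes. Log2(normalized count + 1) entered limma 3.58.1 (R 4.3.3) for all 10 samples, with genotype as the only term and an eBayes variance trend, two-sided, with Benjamini-Hochberg adjustment over all tested genes and a threshold of 0.05. Fold changes refer to that log2 scale, where the pseudocount of 1 shrinks changes of low genes. Low values were whole multiples of 1 step per library, and 100% of the values came out as whole reads within a tolerance of 0.01. In 2 libraries this step was near 1, so edgeR 4.0.16 and DESeq2 1.42.0 were run on the recovered reads of the other 8 samples and, as an alternative added after seeing the data, of all 10. Total reads limit the precision of genes with few counts, and intervals on the summed reads of a gene cover counting error only. The fits were tested on simulated counts.

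Named are the members past the threshold, the member with the most counts in each family, members without overlap, list genes past the threshold, Nfe2l2, Keap1, Hnf4a, Ugdh, Gclc, Papss2 and tissue checks. Slc6a19, Gatm, Slc26a2, Slc26a1, Mgst3, Gsto1, Sult1c2, Gsta4, Gstm2 and Ces2b were given values after these had been seen. The members and lists were chosen with earlier results of these data known, so no list count is independent support. Results on some listed genes are not reported here. Promoter windows (RefSeq, GRCm38.p6) and 3′ ends (GENCODE vM21) come from another build than the alignment and serve only as sequence. Promoters were aligned with biopython 1.88.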

Additional observations from a re-analysis of the deposited data

Results flagged for a closer look

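In 82 groups of 5 samples (41 members in 2 genotypes), 7 held a sample far from its 4 companions by Dixon's criterion, where chance gives about 1 in 20 groups, or 4.1. Ces1g had 69.3 normalized counts in Rragc S74N/+ replicate 4 and 9.33 to 25.3 in the other mutant kidneys. Gstm2 had 498 in Rragc +/+ replicate 3 and 175 to 221 in the other wild-type kidneys. Gstt2 had 368 in Rragc S74N/+ replicate 1 against 597 to 615, and Sult5a1 had 26.1 in that same kidney against 9.72 to 13.2. Gstt3 had 327 in Rragc S74N/+ replicate 4 against 369 to 384. Ugt1a5 had 0.995 in Rragc +/+ replicate 5 against 6.72 to 8.95, and Ugt1a6a had 34.0 in Rragc S74N/+ replicate 5 against 9.69 to 15.3. None of the 4 members past the threshold was among them.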

How the results depend on the processing

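The 4 members past the threshold were recomputed under 25 alternatives and a stricter threshold. The count was 2 in limma without the variance trend, in edgeR and in limma on 8 samples, and at an adjusted p under 0.01, and each time the 2 were Ugt2b34 and Ugt2b37. Leaving out 1 library at a time gave 2 to 6 members, with 2 without Rragc +/+ replicate 1, 2 or 3 or Rragc S74N/+ replicate 5, and with 6 without Rragc S74N/+ replicate 1, where Gsto1 and Ugt2b38 also passed. Sult1c2 passed without Rragc S74N/+ replicate 4 and in DESeq2 on all 10 samples. The 5 genes of the pathway lists became 8 without Rragc S74N/+ replicate 1, an alternative added after seeing the data. The cause of these moves was not tested. Ugt2b37 passed in all 25 alternatives and Ugt2b34 in the 24 that tested it, since a minimum mean of 50 normalized counts removed it. Ces1f was lost in 11 of 25 and Ces2e in 9 of 25, and no member past the threshold changed direction. Scaling to equal library totals moved the median of all genes from -0.01 to 0.06 on the log2 scale and turned the sign of 1 member, Gstt2. The ratios of the class sums moved by less than their spread under both other scalings, for UGT from 1.55 to 1.63 and 1.59. The kidneys came from separate mice and the labels match none of them between genotypes, so no paired analysis was made. Precision was limited by reads for Ugt2b34, Ugt1a5, Gstp1 and other genes with about 10 counts or fewer, and by 5 kidneys per group for the rest.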
